A study of Mus musculus with 6 samples.

Results

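The glucocorticoid receptor and the chaperone genes around it were described in CD11b+ cells, the fraction that holds the microglia, of the mouse brain. The 10 members were the rows of the deposited table, which lists 19225 genes, whose symbol was Nr3c1, Nr3c2, Fkbp5, Fkbp4, Hsp90aa1, Hsp90ab1, Ptges3, Stip1, Hsd11b1 or Ncor1, and each symbol matched 1 row. RNA came from unstressed mice, 3 of them Cnr1+/+ and 3 Cnr1-/-, each giving 1 library. The Cnr1-/- mice carried the tm1Zim allele on both copies of the gene for cannabinoid receptor 1 (genotype d/d), a constitutive knockout that interrupts the coding part of the gene with a neomycin cassette, and the Cnr1+/+ mice were wild type (wt/wt, with the strain given in the labels as C57BL6/J). By the study's methods, the knockout line shares this C57BL/6J background and wild-type littermates were used as controls. All mice were male, and the labels give an age of 3 months for both groups while the study's methods give 8 to 10 weeks. The cells were enriched with CD11b magnetic beads after mechanical dissociation of perfused brains and were sequenced in bulk, so that fewer cells of a type and less RNA per cell cannot be told apart.

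The glucocorticoid receptor, encoded by Nr3c1, is a transcription factor that waits in the cytoplasm in a complex with a dimer of the chaperone HSP90. HSP70 and the adaptor HOP load the receptor onto HSP90, p23 holds the mature complex in the shape that binds hormone, and the immunophilins FKBP51 (Fkbp5) and FKBP52 (Fkbp4) compete for the same site on HSP90. FKBP51 lowers the receptor's affinity for corticosterone and delays its entry to the nucleus, FKBP52 links it to the dynein motor, and Fkbp5 is itself induced by the activated receptor, which closes a negative feedback loop.

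Because Fkbp5 was the member that differed between the groups, its start-site window is shown beside that of Fkbp4, its competitor on HSP90. They run from 250 bases before to 50 bases after a transcription start (RefSeq, GRCm38.p6). Fkbp5 is on the minus strand at chr17:28486100-28486399, which is the start of a transcript inside the listed gene, since other annotated Fkbp5 transcripts begin at 28517524. Fkbp4 is on the minus strand at chr6:128438607-128438906. Capitals mark matches to the motifs searched.
Fkbp5: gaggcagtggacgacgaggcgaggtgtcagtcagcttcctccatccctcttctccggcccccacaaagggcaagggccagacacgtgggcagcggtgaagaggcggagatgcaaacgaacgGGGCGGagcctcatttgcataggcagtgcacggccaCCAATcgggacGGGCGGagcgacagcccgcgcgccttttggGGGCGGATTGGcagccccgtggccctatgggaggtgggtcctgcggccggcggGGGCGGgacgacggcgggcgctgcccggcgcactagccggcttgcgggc
Fkbp4: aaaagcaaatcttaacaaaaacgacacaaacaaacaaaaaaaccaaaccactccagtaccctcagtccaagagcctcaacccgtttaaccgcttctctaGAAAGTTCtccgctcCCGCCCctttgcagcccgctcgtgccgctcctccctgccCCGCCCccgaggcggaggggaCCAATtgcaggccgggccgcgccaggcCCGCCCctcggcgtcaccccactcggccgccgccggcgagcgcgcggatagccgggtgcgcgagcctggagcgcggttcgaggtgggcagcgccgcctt
The motifs were a pair of heat shock element units (GAANNTTC or TTCNNGAA), the heat shock element triplet, the palindromic glucocorticoid response element (AGAACA and TGTTCT separated by 3 bases), the CCAAT box (CCAAT or ATTGG), the GC box (GGGCGG or CCGCCC) and the TATA box (TATAAA, on the gene's strand). Positions are those of a match's first base, counted from 0 at the start site. The Fkbp5 window held 4 GC boxes at -129, -82, -52 and 1 and 2 CCAAT boxes at -93 and -46, the second of which directly follows a GC box. Its GC content was 70.7%, and no match to either heat shock motif or to the palindromic element was found in these 300 bases. The Fkbp4 window had a GC content of 65.3% and held the pair GAAAGTTC at -151, 1 CCAAT box at -76 and 3 GC boxes. Among 32851 windows of the same length, 15.1% held the heat shock pair, 0.603% the triplet, 37.4% a CCAAT box, 35.7% a GC box and 8.32% a TATA box, and 3 windows (0.00913%) held the palindromic element. In all, windows of 7 members were examined, 8 windows in total. No window of Nr3c1, Hsp90aa1 or Hsp90ab1 was examined, so the presence or absence of these motifs there was not tested. The window of Stip1 held 4 CCAAT boxes and a TATA box at -30, that of Nr3c2 a heat shock pair at -151 and 3 CCAAT boxes, and that of Ptges3 4 GC boxes.

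The values are CPM (counts of 3′ sequence tags relative to the library total, written cpm) scaled by the authors. A transcript gives a single tag whatever its length, so levels of different genes are compared without division by length. The value of 1 read corresponds to effective library sizes, which include the TMM scaling, of 7708812 to 10723826 reads, and a listed value of 0 allows up to 3 reads, or 0.280 to 0.389 cpm, which covers counting error only. Cnr1, the targeted gene, was listed at 0 cpm in the 3 libraries labelled Cnr1+/+ and at 1.41, 1.21 and 1.79 cpm (13, 13 and 15 reads) in those labelled Cnr1-/-. This goes against the labels, although a 3′ tag outside the disrupted part of a gene checks nothing, and directions below are therefore given by the labels of the libraries. Triplets of values are in the order of replicates 1, 2 and 3. Markers of microglia (10 genes, led by Cx3cr1 and Csf1r) summed to 14680 to 17058 cpm, against 423 to 858 cpm of 7 oligodendrocyte markers, 229 to 392 cpm of 7 astrocyte markers and 41.4 to 71.7 cpm of 9 neuron markers. The library labelled Cnr1-/- replicate 2 stood apart, with 4075 cpm of 10 neutrophil markers against 267 to 526 cpm in the other 5 libraries and 2342 cpm of 7 erythrocyte markers against 136 to 237 cpm.

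All 10 members were detected in every library. Hsp90ab1 was the most abundant, with a mean of 727 cpm over the 6 libraries, above 99.8% of the listed genes. It was followed by Ncor1 at 250 cpm, Hsp90aa1 at 204 cpm, Nr3c1 at 69.3 cpm, Fkbp5 at 60.4 cpm, Ptges3 at 49.6 cpm, Fkbp4 at 27.7 cpm and Stip1 at 13.6 cpm. Nr3c2 at 2.10 cpm and Hsd11b1 at 0.897 cpm were the lowest. In this order the ranges over libraries overlapped between Ncor1 and Hsp90aa1, between Nr3c1 and Fkbp5, between Fkbp5 and Ptges3, and between Nr3c2 and Hsd11b1, although Ncor1 lay above Hsp90aa1 and Nr3c2 above Hsd11b1 in 6 of 6 libraries. The place of Fkbp5 depended on the label, since it lay above Ptges3 in 4 libraries, the 3 labelled Cnr1-/- and Cnr1+/+ replicate 1. Of the members, 8 had a mean of at least 10 cpm and were tested. Nr3c2 and Hsd11b1 did not.

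**Figure D1:**
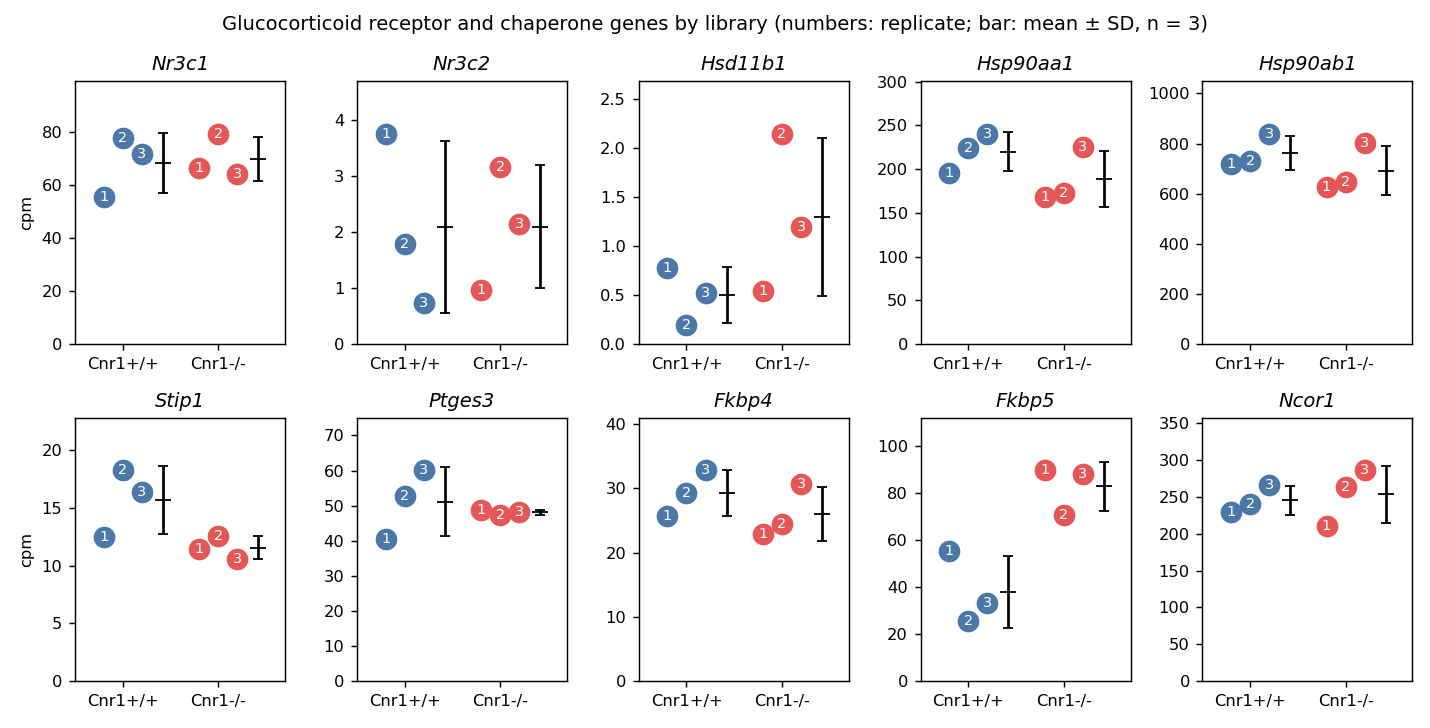
Level of each of the 10 members in cpm (vertical axes, from 0) in the libraries labelled Cnr1+/+ (blue) and Cnr1-/- (red), with the replicate number in each point and the mean ± SD (n = 3) at its right. Fkbp5 is the gene among the 8 tested whose groups do not overlap, with 25.4 to 55.1 cpm against 70.7 to 89.6 cpm. Groups did not overlap in 11% of all genes tested.

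The comparison asked whether genes of the receptor complex differ between microglia-enriched cells labelled Cnr1-/- and Cnr1+/+ in the absence of stress. Fkbp5, the immunophilin that restrains the receptor, rose 2.28-fold in the libraries labelled Cnr1-/-, and none of the other 7 tested members had a nominal p under 0.05. The point estimates of the receptor, both HSP90 genes, the co-chaperones, Fkbp4 and the corepressor ran from 0.745-fold (Stip1) to 1.03-fold (Nr3c1 and Ncor1). The member count at a nominal limma p under 0.05 was therefore 1 of 8, where 6.02% of the 6659 genes tested passed. With the study's thresholds of an adjusted p under 0.1 and a fold change over 1.5 it was also 1 of 8, where 0.0901% of all genes passed. Fkbp5 had been chosen as a member with these results known.

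The glucocorticoid receptor gene itself had nearly the same mean in both groups. For Nr3c1 (chromosome 18, 39410545 to 39519421, minus strand), replicates 1, 2 and 3 labelled Cnr1+/+ had 55.7, 77.8 and 71.9 cpm, and replicates 1, 2 and 3 labelled Cnr1-/- had 66.5, 79.5 and 64.3 cpm. The lowest value was that of Cnr1+/+ replicate 1 and the highest that of Cnr1-/- replicate 2, and the groups overlapped. The means were 68.5 ± 11.5 and 70.1 ± 8.25 cpm (SD, n = 3), and the log2 fold change on the log2 (cpm + 0.1) scale, used for all fold changes here, was 0.04 (SE 0.15, 95% interval -0.27 to 0.35, limma adjusted p = 0.984). In fold terms the interval ran from 0.830 to 1.28.

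Nr3c2 encodes the mineralocorticoid receptor, which binds corticosterone with higher affinity and is filled at lower hormone levels. Its values (chromosome 8, 76899442 to 77245012, plus strand) were 3.76, 1.80 and 0.736 cpm under the Cnr1+/+ label and 0.974, 3.17 and 2.15 cpm under the Cnr1-/- label, from 7 to 34 reads. The groups overlapped over their whole range (two-sided exact permutation p = 0.8, n = 3 per group, where 0.1 is the smallest p that the 10 splits allow). Nr3c1 was the more abundant receptor in each library.

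Hsd11b1 encodes 11β-hydroxysteroid dehydrogenase type 1, which regenerates active corticosterone from its inert form inside cells. It had 0.778, 0.1995 and 0.526 cpm under the Cnr1+/+ label and 0.541, 2.14 and 1.19 cpm under the Cnr1-/- label, from 2 to 23 reads (chromosome 1, 193221634 to 193264075, minus strand). The highest value was that of Cnr1-/- replicate 2, the library with the neutrophil and erythrocyte markers, and the part of those cells in it was not tested. The groups overlapped (two-sided exact permutation p = 0.2, n = 3 per group).

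Fkbp5 (chromosome 17, 28399094 to 28517527, minus strand) carried the difference. Replicates 1, 2 and 3 labelled Cnr1+/+ had 55.1, 25.4 and 33.2 cpm, from 425, 255 and 316 reads. Those labelled Cnr1-/- had 89.6, 70.7 and 88.1 cpm, from 828, 758 and 739 reads. Each library labelled Cnr1-/- lay above each labelled Cnr1+/+, a separation seen in 11% of all genes tested, and the closest values were 70.7 cpm in Cnr1-/- replicate 2 and 55.1 cpm in Cnr1+/+ replicate 1. The means were 37.9 ± 15.4 and 82.8 ± 10.5 cpm (SD, n = 3). The log2 fold change was 1.19 (SE 0.20, 95% interval 0.79 to 1.59, limma nominal p = 1.7e-06, adjusted p = 0.00565), and a two-sided exact permutation test gave p = 0.1, the smallest it can give with n = 3 per group.

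The spread of Fkbp5 was unequal between the labels. Its coefficient of variation was 40.6% in the libraries labelled Cnr1+/+ and 12.7% in those labelled Cnr1-/-, whereas that of the other 7 tested members lay between 1.53% and 19.4% and the median of all genes tested was 14.02%. Over the 6 libraries its highest value was 3.52 times its lowest, while this ratio was 1.34 to 1.72 for the other tested members. The adjusted p of Fkbp5 was above the threshold in 5 of 16 alternatives, at 0.121 without Cnr1+/+ replicate 2 (log2 fold change 0.94), 0.2198 with libraries centred on their medians, 0.259 with quantile normalisation, 0.171 after rescaling that left out mitochondrially encoded genes and 0.825 with a variance prior that did not follow the mean. Without Cnr1-/- replicate 2, whose neutrophil markers stood apart, the log2 fold change was 1.30 (limma adjusted p = 6.51e-05).

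Of the other rows of the table, 2 lie inside Fkbp5 on the same strand. Gm49838 (chromosome 17, 28424723 to 28426430) did not exceed 0.839 cpm. Gm49839 (chromosome 17, 28457484 to 28461095) shares no exonic base with any of the 15 annotated Fkbp5 transcripts and lies in an intron of those that span it. It had 6.36, 8.08 and 15.5 cpm under the Cnr1+/+ label and 38.0, 31.8 and 10.02 cpm under the Cnr1-/- label. Thus Cnr1-/- replicate 3, which had the second highest Fkbp5, had an intronic value between those of the Cnr1+/+ libraries, and the groups overlapped (log2 fold change 1.30, SE 0.36, limma adjusted p = 0.381). Among genes known to be induced by glucocorticoids, 5 of 10 tested had a nominal p under 0.05 and were higher (5.09% of all genes tested), namely Ddit4, Tsc22d3, Nfkbia, Per1 and Sgk1, a list that overlaps one the study drew from these samples. The count was 2 without Cnr1-/- replicate 2, the library with the neutrophil and erythrocyte markers, whose part in it was not tested, and 4 under each of 3 other scalings. Ddit4 differed the most, with a log2 difference of 1.45 (adjusted p = 0.0568), which passes the same thresholds as Fkbp5. Mt1, with Nfkbia the most abundant of the list, had 86.5 to 161 cpm and differed by 0.20 on the log2 scale (adjusted p = 0.907). In Cnr1-/- replicate 3 each of these 5 lay below at least 1 library labelled Cnr1+/+, for example Per1 at 10.4 cpm beside 9.47, 10.4 and 10.9 cpm, whereas Fkbp5 in that library did not.

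Fkbp4 encodes FKBP52, the immunophilin that favours nuclear entry. It had 25.7, 29.3 and 32.8 cpm under the Cnr1+/+ label and 22.8, 24.5 and 30.8 cpm under the Cnr1-/- label (chromosome 6, 128429735 to 128438677, minus strand). The groups overlapped, with the lowest values in Cnr1-/- replicates 1 and 2, and the log2 fold change was -0.17 (SE 0.19, 95% interval -0.55 to 0.21, limma adjusted p = 0.934).

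Because FKBP51 and FKBP52 bind the same site, the ratio of their transcripts was formed within each library, which removes the scaling between libraries. Fkbp5 to Fkbp4 was 2.15, 0.867 and 1.01 in the libraries labelled Cnr1+/+ and 3.92, 2.88 and 2.86 in those labelled Cnr1-/-. The mean rose from 1.34 ± 0.700 to 3.22 ± 0.607 (SD, n = 3), and the groups did not overlap. The log2 ratio differed by 1.36, or 2.57-fold, with a two-sided exact permutation p of 0.1, the smallest possible, and 0.2 after adjustment over the 3 ratios compared. Fkbp5 thus made up 46.4% to 68.2% of the summed FKBP transcripts in the libraries labelled Cnr1+/+ and 74.1% to 79.7% in those labelled Cnr1-/-. The ratio of Fkbp5 to Nr3c1 was 0.991, 0.327 and 0.462 against 1.35, 0.889 and 1.37, and here Cnr1+/+ replicate 1 lay above Cnr1-/- replicate 2 (log2 difference 1.15, exact permutation p = 0.2, adjusted p = 0.2).

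**Figure D2:**
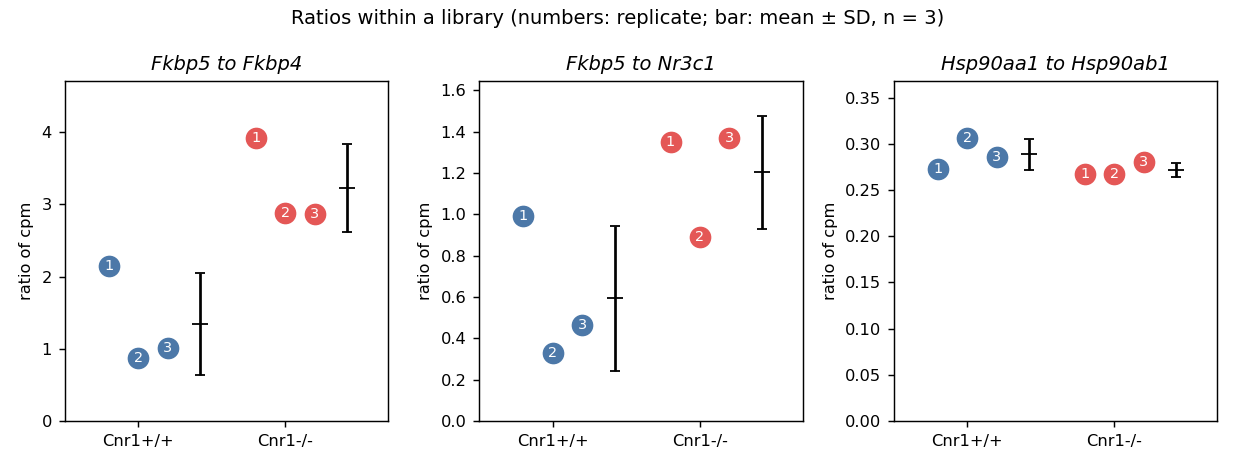
Ratios of cpm within a library (vertical axes, from 0) for Fkbp5 to Fkbp4, Fkbp5 to Nr3c1 and Hsp90aa1 to Hsp90ab1, with replicate numbers in the points and the mean ± SD (n = 3) at their right, Cnr1+/+ in blue and Cnr1-/- in red. The groups separate for Fkbp5 to Fkbp4 (0.867 to 2.15 against 2.86 to 3.92) and overlap for the other two.

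The cytosolic HSP90 genes, inducible Hsp90aa1 and constitutive Hsp90ab1, were lower on average in the libraries labelled Cnr1-/- but overlapped. Hsp90aa1 (chromosome 12, 110690605 to 110702728, minus strand) had 196, 224 and 241 cpm in those labelled Cnr1+/+ and 168, 173 and 225 cpm in those labelled Cnr1-/-. Hsp90ab1 (chromosome 17, 45567775 to 45573271, minus strand) had 717, 730 and 840 cpm against 626, 646 and 804 cpm. For both, Cnr1-/- replicates 1 and 2 were the lowest of the 6 and Cnr1-/- replicate 3 was exceeded only by Cnr1+/+ replicate 3. The log2 fold changes were -0.23 (SE 0.13, 95% interval -0.50 to 0.04) and -0.15 (SE 0.12, 95% interval -0.40 to 0.11), with limma adjusted p of 0.839 and 0.9004.

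The 2 genes kept a nearly fixed proportion. Hsp90aa1 made up 21.1% to 23.5% of their sum in every library, and the log2 ratio differed by -0.09 between labels (exact permutation p = 0.2, adjusted p = 0.2). Reads of Hsp90aa1 can be shared with copies elsewhere, since 24.7% of the 50-base stretches in the last 500 bases of its transcripts also occur in the processed pseudogenes Gm12346 and Gm5844. Gm12346 was listed with 26.9 to 48.8 cpm, and with both added to Hsp90aa1 the log2 fold change was -0.24 (limma adjusted p = 0.839), a sum chosen after seeing the data. For Hsp90ab1 the share was 2.25%, with Gm6368 at most at 14.2 cpm. The HSP90 paralogues of other compartments, Hsp90b1 in the endoplasmic reticulum and Trap1 in mitochondria, had log2 fold changes of 0.04 and 0.27 (adjusted p = 0.979 and 0.915).

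Stip1 encodes HOP, the adaptor that bridges HSP70 and HSP90. It had 12.5, 18.3 and 16.4 cpm under the Cnr1+/+ label and 11.5, 12.6 and 10.6 cpm under the Cnr1-/- label, from 89 to 183 reads (chromosome 19, 7020702 to 7039967, minus strand). Cnr1-/- replicate 2 (12.6 cpm) lay just above Cnr1+/+ replicate 1 (12.5 cpm), and apart from this pair the groups were separate. The log2 fold change was -0.42 (SE 0.25, 95% interval -0.93 to 0.08, limma adjusted p = 0.839).

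Ptges3 encodes p23, which stabilises the closed HSP90 complex. It had 40.5, 52.8 and 60.1 cpm under the Cnr1+/+ label and 48.7, 47.3 and 48.3 cpm under the Cnr1-/- label (chromosome 10, 128058954 to 128077272, plus strand). The 3 values of the latter lay between the lowest and the middle value of the former, and the log2 fold change was -0.07 (SE 0.16, 95% interval -0.40 to 0.26, limma adjusted p = 0.972).

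Ncor1 encodes a corepressor that recruits histone deacetylases to nuclear receptors. It had 229, 241 and 267 cpm under the Cnr1+/+ label and 211, 264 and 286 cpm under the Cnr1-/- label (chromosome 11, 62316426 to 62458541, minus strand). Both the lowest and the highest library were labelled Cnr1-/-. The log2 fold change was 0.04 (SE 0.13, 95% interval -0.22 to 0.30, limma adjusted p = 0.982).

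The direction of the small differences depended on the scaling between libraries. With the authors' scaling, 5 of 8 members had a log2 fold change below 0 (31.6% of all genes tested) and the median was -0.11, where the median of all genes was 0.08. Centring libraries on their medians, quantile normalisation, and rescaling that left out mitochondrially encoded genes moved the median of all genes by -0.08, -0.09 and -0.10. It was then 0.0084, -0.0014 and -0.016, so that the share of 31.6% below 0 does not apply to these scalings. Under each of them Nr3c1 and Ncor1 were also below 0, so that 7 members were lower and Fkbp5 was higher. Hsp90aa1 then had log2 fold changes of -0.31, -0.31 and -0.33 and Stip1 of -0.50, -0.52 and -0.52, each with a nominal limma p under 0.05. Hsp90ab1 had -0.22, -0.26 and -0.24, with a nominal p under 0.05 in the last 2. The members lower at a nominal p under 0.05 numbered 2, 3 and 3 of 8, where 2.67%, 2.96% and 3.19% of all genes were, against 0 of 8 and 0.931% with the authors' scaling, and the limma adjusted p of these 3 genes lay between 0.878 and 0.893. A single library had a like effect, since without Cnr1+/+ replicate 1 Hsp90aa1 (-0.31) and Stip1 (-0.58) and without Cnr1-/- replicate 3 Hsp90aa1 (-0.36) also had a nominal p under 0.05 (limma adjusted p = 0.805 to 0.868). Without Cnr1+/+ replicate 1, 7 of 8 members were below 0 (median -0.21, all genes 0.031). Without Cnr1+/+ replicate 3 the split was 4 above and 4 below (median -0.0084, all genes 0.13).

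**Figure D3:**
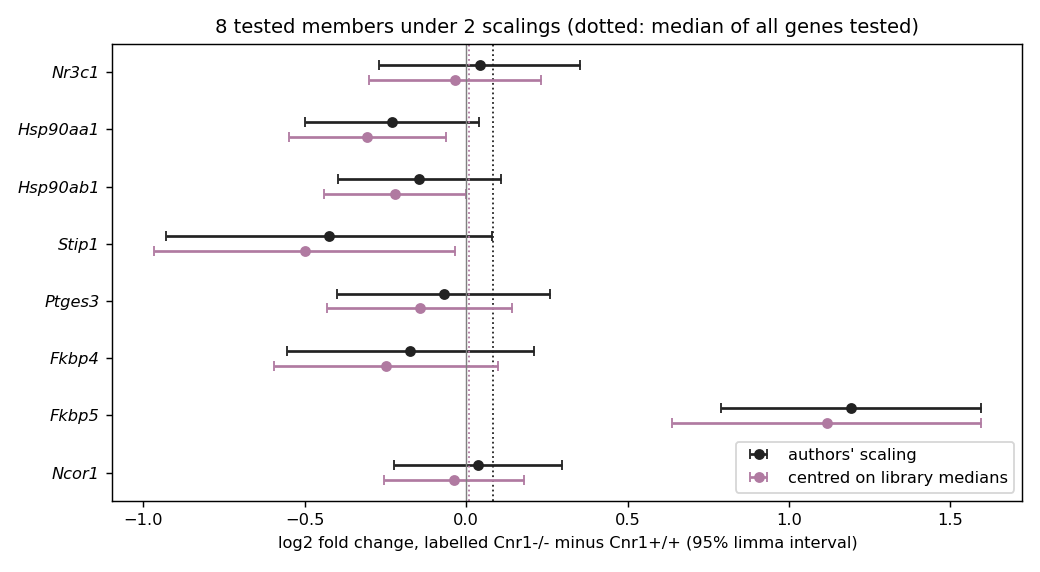
Log2 fold change (horizontal axis) of the 8 tested members, labelled Cnr1-/- minus Cnr1+/+, with 95% limma intervals, under the authors' scaling (black) and with each library centred on its median (purple). Fkbp5 lies at 1.19 and 1.12, and the centred intervals of Hsp90aa1 and Stip1 lie below 0 while those under the authors' scaling reach above it.

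The levels of 3 chaperone genes went together from library to library. Hsp90aa1, Hsp90ab1 and Fkbp4 put the 6 libraries in the same order, from Cnr1+/+ replicate 3 at the top through Cnr1-/- replicate 3, Cnr1+/+ replicate 2, Cnr1+/+ replicate 1 and Cnr1-/- replicate 2 to Cnr1-/- replicate 1 at the bottom. Of all genes tested, 283 (4.25%) had the same 3 highest libraries as Hsp90aa1, as did 3 of 8 tested members, Hsp90aa1 included. This is a looser match than the full order, whose share among all genes was not counted. Fkbp5 had another order, with Cnr1-/- replicate 1, the lowest library for the 3 chaperone genes, at its top and Cnr1+/+ replicate 2 at its bottom. These orders were noticed after the values were seen and are given as a description.

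**Figure D4:**
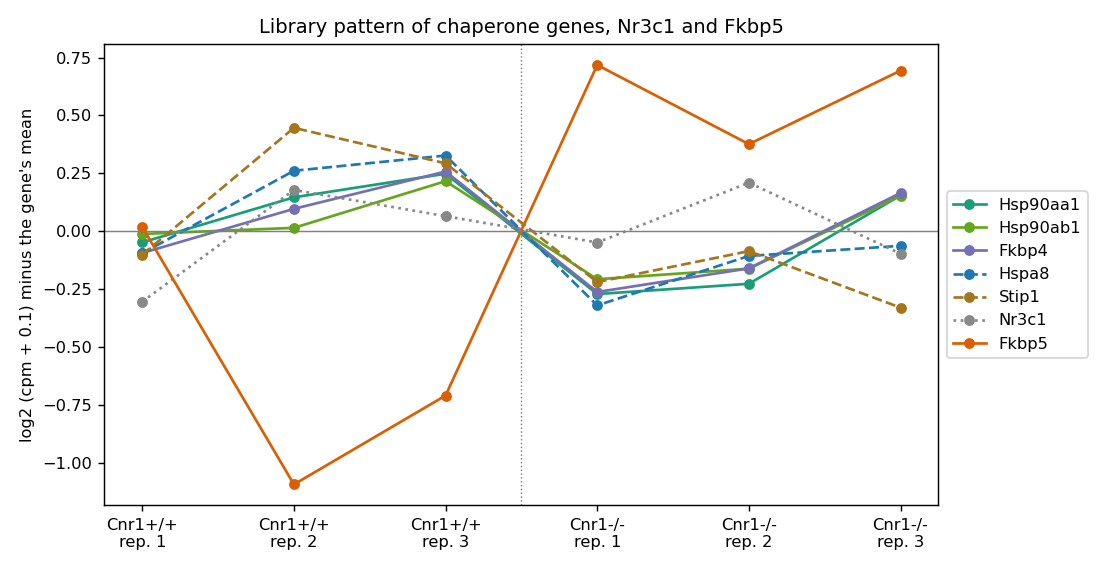
Log2 (cpm + 0.1) minus the gene's own mean (vertical axis) in the 6 libraries (horizontal axis) for 4 chaperone genes, Stip1, Nr3c1 and Fkbp5. Hsp90aa1, Hsp90ab1 and Fkbp4 run together and have the same order of libraries, and Fkbp5 is highest in Cnr1-/- replicate 1, where those 3 are lowest.

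The genes whose library pattern was most like that of Fkbp5 were Cpeb2, Gm9774, Mmut, Plbd2 and Mapk1ip1l, with Pearson r of 0.986, 0.981, 0.979, 0.978 and 0.9698 over the 6 libraries. There were 53 genes with r over 0.9 among the 6659. The 5 genes named had log2 fold changes of 0.19 to 0.46. Since they were chosen for following Fkbp5, which separates the labels, no test between the labels is given for them.

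The other genes of the pathway were read from lists without the members. Of 26 genes for HSP70 and HSP90 co-chaperones, 19 were tested, 7 had a log2 fold change above 0 and 12 below (median -0.07), where 68.4% of all genes tested were above 0 and 31.6% below, and 1 was lower at a nominal p under 0.05 (0.931% of all genes tested were lower and 6.02% passed in either direction). This was Hspa8, the constitutive HSP70 that first binds the receptor, with 200, 256 and 268 cpm in the libraries labelled Cnr1+/+ and 171, 199 and 205 cpm in those labelled Cnr1-/-. Its groups overlapped through Cnr1+/+ replicate 1, and the log2 fold change was -0.33 (SE 0.13, limma adjusted p = 0.792). The count was 0 without Cnr1+/+ replicate 2, Cnr1+/+ replicate 3 or Cnr1-/- replicate 1. Under the 3 other scalings 15, 16 and 17 of the 19 were below 0 (medians -0.14, -0.16 and -0.17). The medians of all genes were then 0.0084, -0.0014 and -0.016, so that the shares of 68.4% and 31.6% do not apply to these counts. Without Cnr1-/- replicate 1 the split was 9 above and 10 below (median -0.0051). Dnajc7, a co-chaperone that binds both HSP70 and HSP90, had 114 to 142 cpm over all libraries and a log2 fold change of 0.01 (adjusted p = 0.995).

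Of 12 genes of the heat shock response, 6 were tested and 0 had a nominal limma p under 0.05. Their summed level was 156, 160 and 195 cpm in the libraries labelled Cnr1+/+ and 146, 163 and 162 cpm in those labelled Cnr1-/-, and 4 of the 6 had a log2 fold change below 0 (median -0.11), beside 31.6% of all genes. The median was -0.18, -0.18 and -0.21 under the 3 other scalings. Without Cnr1+/+ replicate 3 or without Cnr1-/- replicate 1, 4 of the 6 were above 0, with medians of 0.048 and 0.043. The mitochondrial chaperonin Hspd1 and the HSP90 co-chaperone Chordc1 were the most abundant, at log2 fold changes of -0.11 and -0.19. Chordc1 and Dnajb1, both tested and below 0, were also counted in the co-chaperone list, so that the lists are not separate. The strongly stress-inducible Hspa1a and Hspa1b did not exceed 1.19 cpm in any library.

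Of 20 receptor coregulators, 17 were tested, 12 with a log2 fold change above 0 and 5 below (median 0.12), a split near the 68.4% and 31.6% of all genes. Under the 3 other scalings the median was 0.043, 0.030 and 0.020. Ncoa2, which encodes the coactivator GRIP1 of the glucocorticoid receptor, was the 1 gene with a nominal p under 0.05, where 6.02% of all genes passed. It had 14.8, 25.4 and 22.4 cpm under the Cnr1+/+ label and 27.1, 27.0 and 28.1 cpm under the Cnr1-/- label, so that the groups did not overlap (as in 11% of all genes), with Cnr1+/+ replicate 1 well below the others (log2 fold change 0.43, SE 0.21, limma adjusted p = 0.825). The count was 0 under each of the 3 other scalings and without Cnr1+/+ replicate 1 or any 1 of the libraries labelled Cnr1-/-, and 2 without Cnr1+/+ replicate 2 or 3. Nrip1 and Crebbp, the most abundant of the list, had log2 fold changes of 0.14 and -0.04.

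Receptor transport to the nucleus gave 12 tested genes of 13, with 7 above 0 and 5 below (median 0.04), beside 68.4% of all genes above 0, and 0 at a nominal limma p under 0.05. Under the 3 other scalings this median was below 0, at -0.035, -0.035 and -0.058. The dynein heavy chain gene Dync1h1 had a log2 fold change of -0.02 and the importin gene Kpnb1 one of 0.23 (limma adjusted p = 0.991 and 0.857). Of 12 genes for steroid metabolism and export, 9 were listed and 5 tested. All 5 had a log2 fold change above 0 (median 0.22), beside 68.4% of all genes, and 0 had a nominal limma p under 0.05. Under the 3 other scalings the median was 0.14, 0.13 and 0.12, with 1 gene below 0 in the last. Without Cnr1+/+ replicate 2 only 2 were above 0 and the median was -0.0092. Srd5a3 and Por, which encodes the electron donor of microsomal P450 enzymes, had log2 fold changes of 0.32 and 0.15.

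**Figure D5:**
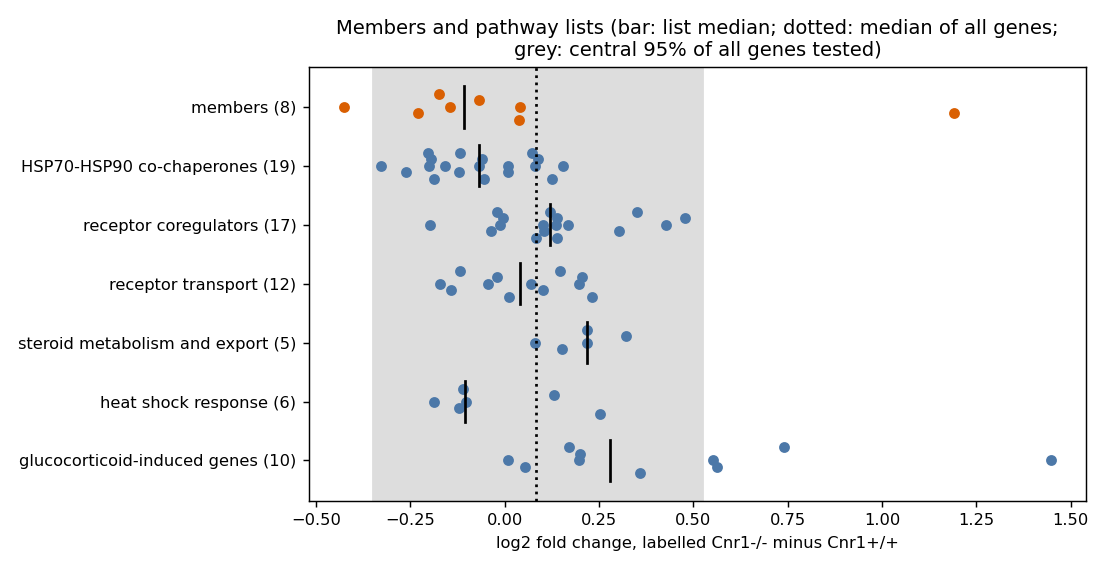
Log2 fold change (horizontal axis), labelled Cnr1-/- minus Cnr1+/+, of each tested gene of the members and of 6 pathway lists, with the number tested in brackets, the list median as a bar, the median of all genes (0.08) as a dotted line and the central 95% of all genes (-0.35 to 0.53) in grey. Fkbp5 and 4 glucocorticoid-induced genes lie above the grey band, and Stip1 lies below it.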

How the data were processed

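RNA of CD11b+ cells from 6 mice was prepared with a 3′ tag kit (QuantSeq FWD). The authors aligned the reads to mm10 with STAR, quantified genes in Partek, where an expectation-maximisation step assigns reads that fit several genes, and applied TMM scaling. The deposited values are the resulting CPM, and listed genes hold 50.1% to 59.1% of a library's scaled total. Between 83.4% and 85.5% of values were whole reads within 0.02 reads, so no test for counts was used.

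Genotype labels were compared with limma 3.58.1 (lmFit, eBayes with trend; R 4.3.3) on log2 (cpm + 0.1) for 6659 genes that averaged 10 cpm or more, with Benjamini-Hochberg adjustment over all of them. Nr3c2, Hsd11b1 and the ratios were compared by two-sided exact permutation tests. Members and lists were chosen with earlier results of these data known. Within each pathway list described, genes with a nominal p under 0.05 and the 2 most abundant were named, as were the 5 genes most like Fkbp5 and same-strand overlapping genes. Coordinates are those of the table. Overlaps and shared 50-base stretches come from GENCODE vM21, start-site windows from RefSeq. Replicate numbers were not treated as pairs in the reported fit. Same-numbered deviations correlated at -0.06, -0.03 and -0.03, which with 3 libraries per group cannot exclude a pairing. Alternatives were pseudocounts of 1 and 0.0001, no minimum, a minimum of 20 cpm, 3 other scalings, eBayes without trend, vooma weights, a replicate block and each library left out. The steps were tested on simulated data. Figures used matplotlib 3.10.9.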

Additional observations from a re-analysis of the deposited data

How the results depend on the processing

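The members with a nominal p under 0.05, 1 with the authors' scaling, numbered 3 with each library centred on its median, 4 with quantile normalisation, 4 with rescaling without mitochondrially encoded genes, 2 without a variance trend, and 1 to 3 with a library left out. Those with an adjusted p under 0.1 and a fold change over 1.5, 1 in the reported fit, numbered 0 under these 3 scalings and without the trend, and 0 to 1 with a library left out. The log2 fold change of Fkbp5 was then 1.12, 1.10, 1.09 and 1.19, and 0.942 to 1.499 with a library left out. Co-chaperones with a nominal p under 0.05, reported as 1, numbered 3 without a minimum level, 2 under each of the 3 scalings, 0 without the trend and 0 to 1 with a library left out. Of the 3 without a minimum level, Hspa8 was lower, and Hspbp1 and Ahsa1 were higher. For coregulators, reported as 1, the count was 0 with a minimum of 20 cpm and under each of the 3 scalings, and 0 to 2 with a library left out. Without the trend it was 1, but the gene was Ncoa1 and no longer Ncoa2. Among the differences that were not called, Nr3c1 changed sign to -0.034, -0.052 and -0.058 and Ncor1 to -0.038, -0.055 and -0.062 under the 3 scalings, and with a library left out Nr3c1 ranged from -0.10 to 0.14, Ncor1 from -0.055 to 0.17 and Ptges3 from -0.23 to 0.057. Without Cnr1+/+ replicate 1, Nr3c1 was at -0.10 and Ncor1 at -0.011, without Cnr1-/- replicate 2 Nr3c1 was at -0.053, and without Cnr1-/- replicate 3 Ncor1 was at -0.055. The cause of these changes was not tested. Of the 401 genes at a nominal p under 0.05, 339 were higher and 62 lower, against 197 and 178, 163 and 197, and 142 and 212 under the 3 scalings.

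The replicate block left the member counts at 1 and 1 and the log2 fold change of Fkbp5 at 1.19 (limma adjusted p = 0.000242), and the numbers are not known to pair the mice. The log2 ratio of Fkbp5 to Fkbp4 was 1.11 to 1.76, and that of Fkbp5 to Nr3c1 0.80 to 1.60, with a library left out. With 3 mice per group, no single comparison can pass 0.05 in an exact permutation test. Nr3c2 rests on 7 to 34 reads and Hsd11b1 on 2 to 23 reads per library.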

Other observations

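Of the co-chaperone list, 7 genes lay below the minimum mean of 10 cpm and are given as values with no test. Of them, Hspbp1, Ahsa1, Fkbpl, Unc45a and Hspa1a had a log2 fold change above 0 and Hsph1 and Hspa1b one below 0. Hspbp1, which encodes a nucleotide exchange factor of HSP70, had 9.64, 6.53 and 9.42 cpm in libraries labelled Cnr1-/- against 3.24, 2.59 and 5.05 cpm in those labelled Cnr1+/+. Ahsa1, the activator of the HSP90 ATPase, had 7.54, 11.2 and 12.04 cpm against 2.47, 7.63 and 8.08 cpm. Hsph1, an HSP110 chaperone, had 6.06, 8.11 and 7.04 cpm against 9.86, 9.98 and 9.36 cpm.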
